A study of Mus musculus with 12 samples.

Results

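The striatum is the large subcortical input nucleus of the basal ganglia. Its gene expression was set against that of 5 other mouse brain regions. The members are the 2 striatum arrays, which the labels name Striatum WT and Striatum KO, out of 12 arrays in all. They were compared with 9 arrays: WT and KO of olfactory bulb, prefrontal cortex, hippocampus and hypothalamus, and the KO array of amygdala. WT stands for wild-type and KO for mice without interleukin-18, an inflammatory cytokine, so that each region except amygdala entered with 1 array of either genotype. Per the labels, all mice were C57BL/6 males of 12 weeks and littermates of an F2 generation, and equal RNA amounts of 5 mice were pooled for each array. Tissue came from coronal brain slices after perfusion of the blood vessels, and the striatum was taken around bregma. The replicates of the striatum are therefore a WT pool and a KO pool. Whether one set of mice gave all the regional pools is not stated in the labels, so the p-values measure the spread between these arrays only. That spread is the departure of a region's WT and KO arrays from the genotype difference shared by the regions. Differences between the other regions do not enter it, and amygdala, with 1 array, adds nothing to it.

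Most striatal neurons are medium spiny projection neurons, which use GABA as transmitter and receive dopamine from the midbrain and glutamate from cortex and thalamus. Those of the direct pathway carry the dopamine D1 receptor and the peptides substance P and dynorphin. Those of the indirect pathway carry the D2 receptor, an adenosine receptor and enkephalin. Both kinds use a cAMP cascade built from the G protein subunit encoded by Gnal, the adenylyl cyclase encoded by Adcy5, the kinase PKA and the phosphatase inhibitor DARPP-32, encoded by Ppp1r1b.

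The 2 striatum arrays were the dimmest of the series. Their 75th percentile of processed intensity was 208 on the WT and 272 on the KO array, against 502 to 768 on the 9 others. The share of gene spots well above background was 60.8% and 67.1%, against 72.9% to 81.3%. Every level below is log2 of the processed signal minus that percentile of its own array, so 0 stands for a spot as bright as the 75th percentile. Levels are meant for comparison between arrays and not between genes. Near the background they are not comparable between arrays either, since the lowest level well above background ranged from -5.67 to -3.78 over the arrays used. Each region lay on a slide of its own, so slide and region cannot be told apart. Il18, the deleted gene, read 0.57 to 1.12 on the WT arrays used and -4.35 to -3.12 on the KO arrays. The prefrontal cortex and hippocampus arrays were scanned on one day and the rest on another. Over the genes tested, each striatum array was nearest to the other one, with a median absolute log2 difference of 0.19. The amygdala WT array was nearest to hypothalamus WT (0.11) and farther from amygdala KO (0.27), and it was left out. The amygdala KO array was in turn nearest to hypothalamus KO (0.26). Without amygdala KO and both hypothalamus arrays, 2876 genes were called higher in striatum and 2549 lower.

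Of 25277 genes and unnamed transcripts tested, 3475 (13.7%) were called higher in striatum and 2497 (9.88%) lower. The counts given for gene lists below are to be read beside these shares. Called means an adjusted p under 0.05 in the limma fit and a difference of at least 2-fold between the striatum and the mean of the 5 other region means. The median difference of all genes tested was 0.095. Higher calls were 58.2% of all calls, but 46.6% with arrays scaled to their medians, 49.2% with quantile normalization and 79.3% with a normexp background correction, so the balance of higher and lower calls depends on the scaling. Both striatum arrays lay above all 9 others for 5820 genes (23.0%) and below all 9 for 4223 (16.7%). Of the lower calls, 824 were not well above background on either striatum array, so the size of their fitted differences rests on signals near the background. The same holds for 26 higher calls, which were well above background on none of the 9 others.

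The label was checked against 4 markers. Rgs9 encodes the regulator of G protein signalling that in brain is best known from the striatum. It read 6.50 on the WT and 6.24 on the KO striatum array, and -1.32, -0.43 and 1.00 as the lowest, median and highest of the 9 others. The difference was 6.63 on the log2 scale (SE 0.12, adjusted p = 1.01e-05, limma), or 98.8-fold. Drd2, the D2 receptor gene, read 2.31 and 2.26 in striatum against -3.85, -2.53 and -1.40, a difference of 4.84 (SE 0.11, adjusted p = 1.16e-05, limma). Ppp1r1b read 1.83 and 2.03 against -2.27, -1.20 and -0.54, a difference of 3.21 (SE 0.071). For these 3 genes the striatum arrays stood clear of every other array. Adora2a, the gene of that adenosine receptor, read 1.70 and 1.65 in striatum against 1.03, 1.48 and 1.74, so that its single probe overlapped with the other regions. Its difference of 0.22 (SE 0.061, adjusted p = 0.018, limma) was under 2-fold and not called. Thus 3 of the 4 markers were called higher. In pooled tissue, fewer cells of a type and less RNA per cell cannot be told apart.

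**Figure D1:**
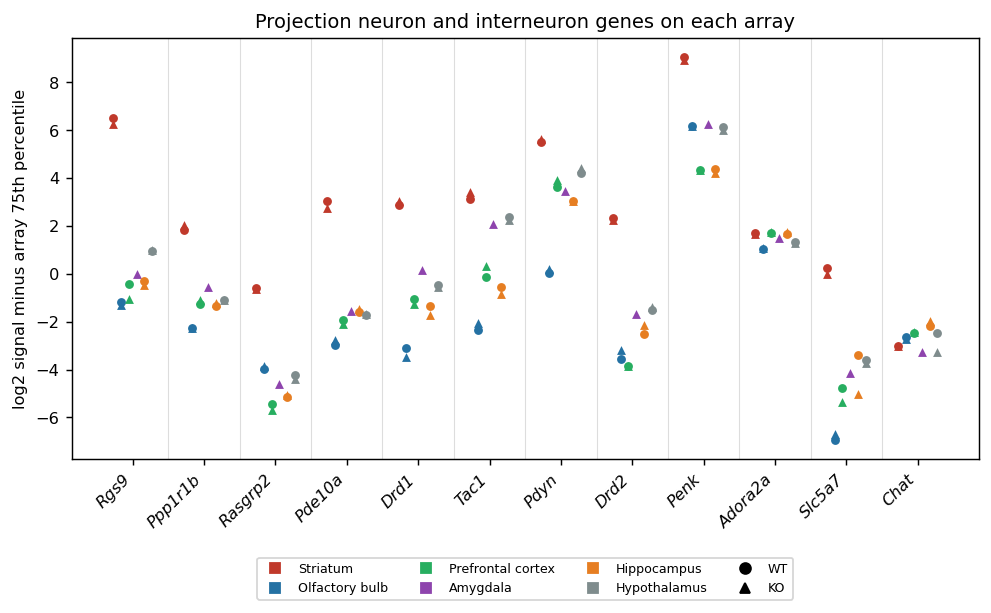
Levels of 12 projection neuron and interneuron genes on each of the 11 arrays (y axis, log2 signal minus the 75th percentile of the array; colours are regions, circles WT arrays and triangles KO arrays). For 10 of the genes both striatum points lie above all others, with Rgs9 at 6.50 and 6.24 and no other array above 1.00, while Adora2a and Chat overlap with other regions.

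The signalling genes of projection neurons were higher in striatum as a group. Of 22 such genes tested, 20 were called higher by limma and none lower, also none at an unadjusted p under 0.05, with a median difference of 2.65 beside 0.095 over all genes tested, and for 18 both striatum arrays lay above all 9 others. Pde10a, the phosphodiesterase that degrades cAMP and cGMP in these neurons, read 3.02 and 2.75 against -2.97, -1.73 and -1.45. Its difference was 4.82 (SE 0.11), and a second probe of the gene gave 5.16. Rasgrp2, an activator of the small GTPase Rap, read -0.61 and -0.63 against -5.70, -4.59 and -3.86. Its difference was 4.08 (SE 0.093).

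The remaining members had smaller differences. Pde1b, a calcium-activated phosphodiesterase, was higher by 3.32, and Arpp21, a phosphoprotein regulated by cAMP, by 3.25. A second Arpp21 probe gave -0.33, so the 2 probes of that gene disagreed. Actn2, an actin cross-linker of dendritic spines, was higher by 2.72, and Ptpn5, the striatum-enriched phosphatase STEP, by 1.74. Hpca and Itpka, which encode the calcium sensor hippocalcin and an inositol trisphosphate kinase, were called higher, by 1.28 and 1.12. For Hpca the hippocampus arrays, and for Itpka the prefrontal cortex arrays, reached above the striatum, up to 5.91 and 6.50. Without the olfactory bulb arrays the differences were 0.58 and 0.16, and neither was called. Dclk3, a kinase, differed by 0.17 (adjusted p = 0.28, limma) and Strn, which encodes striatin, by 0.018 (adjusted p = 0.88, limma). These last were the 2 members not called.

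Genes of the direct pathway were mostly higher in striatum. Of 9 tested, 6 were called higher by limma and none lower (1 at an unadjusted p under 0.05), with a median of 2.63. Drd1, the D1 receptor gene, read 2.86 and 3.02 in striatum against -3.48, -1.26 and 0.15, a difference of 4.19 (SE 0.12). Isl1, a homeobox factor of developing direct pathway neurons, read 0.92 and 0.82 against -4.91, -3.35 and 0.61. The hypothalamus held the highest of the other Isl1 levels, and striatum exceeded it by 0.41. Tac1, the substance P precursor gene, read 3.12 and 3.40 against -2.36, -0.15 and 2.37. Its hypothalamus arrays were again next, and the difference from them was 0.96 (adjusted p = 0.0071, limma), under 2-fold. Pdyn, the prodynorphin gene, read 5.48 and 5.62 against 0.045, 3.46 and 4.41. Its difference was 2.63 (SE 0.074). Slc35d3, a transporter-like protein needed for D1 receptor traffic, was higher by 2.92, and the early B cell factor gene Ebf1 by 1.59. The Slc35d3 level was closest in olfactory bulb, where the difference of 0.61 did not pass the test (adjusted p = 0.21, limma). The M4 muscarinic receptor gene Chrm4 differed by 0.38, the mitochondrial transporter gene Sfxn1 by 0.82 and Eya1 by -0.26, and none of the 3 was called. Second probes of Chrm4 and Sfxn1, above background on all arrays, gave 1.22 and -1.64, so for both genes the reading depends on the probe.

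The indirect pathway list was more divided. Of 6 genes tested, 3 were called higher by limma and none lower (1 at an unadjusted p under 0.05), with a median of 1.00. Penk, the enkephalin precursor gene, read 9.03 and 8.93 in striatum against 4.23, 6.00 and 6.26. Its difference was 3.55 (SE 0.063, adjusted p = 9.00e-06, limma), and a second probe gave 1.97. Gpr6, a receptor that raises cAMP without a known transmitter, was higher by 1.14 (SE 0.13), at -2.08 and -1.53 against -3.15, -2.96 and -2.65, but by 0.89 and not called without the KO striatum array. Gucy1a1, a subunit of the nitric oxide receptor, differed by 0.85 (adjusted p = 0.015, limma), under 2-fold. Ptprm, a receptor phosphatase, differed by -0.99, just inside the 2-fold limit, with both striatum arrays below the rest. It was called lower under some alternatives, among them median scaling (-1.13) and quantile normalization (-1.08), and not under others.

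Over the 3 lists together, 29 of 37 genes were called higher and 19 were higher than each of the 5 regions separately, which held for 1125 of all genes tested (4.45%). The region next to the striatum among those 29 genes was amygdala for 10, hippocampus for 6, hypothalamus for 6, prefrontal cortex for 4 and olfactory bulb for 3. The WT and KO striatum arrays were close for these genes, with KO minus WT between -0.33 and 0.55 and a median of -0.019.

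Promoters were searched for the genes called higher in these lists and in the list of striatal transcription factors below, and for the 15 named genes with the highest differences. The search was for 2 elements that link genes to cAMP signalling: the cAMP response element TGACGTCA and the related TGCGTCA known from the enkephalin gene, on both strands. RefSeq promoters (GRCm38.p6, 300 bases around the start of each transcript) matched 38 of these genes, with 65 promoters. Penk was not matched. TGACGTCA was found in 1 of the 65 and in 1.79% of all 32851 mouse promoters, and TGCGTCA in 4 and in 2.12%. The 3 shown belong to the pathway genes just described, with the element in capitals. A match is a description of the letters and not a binding site.
Gpr6, chr10:41072241-41072540, minus strand: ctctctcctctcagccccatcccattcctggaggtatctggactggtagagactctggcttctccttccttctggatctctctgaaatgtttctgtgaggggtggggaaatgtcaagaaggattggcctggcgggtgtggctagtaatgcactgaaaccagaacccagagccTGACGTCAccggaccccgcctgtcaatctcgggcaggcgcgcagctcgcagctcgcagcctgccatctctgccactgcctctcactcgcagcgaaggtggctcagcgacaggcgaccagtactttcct
Tac1, chr6:7554811-7555110, plus strand: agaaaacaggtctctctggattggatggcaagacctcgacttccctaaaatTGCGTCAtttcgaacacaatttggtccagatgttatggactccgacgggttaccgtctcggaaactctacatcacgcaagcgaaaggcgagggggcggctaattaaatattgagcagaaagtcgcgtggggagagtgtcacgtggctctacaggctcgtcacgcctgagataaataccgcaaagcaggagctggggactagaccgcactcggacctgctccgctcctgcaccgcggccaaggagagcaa
Isl1, chr13:116309639-116309938, minus strand: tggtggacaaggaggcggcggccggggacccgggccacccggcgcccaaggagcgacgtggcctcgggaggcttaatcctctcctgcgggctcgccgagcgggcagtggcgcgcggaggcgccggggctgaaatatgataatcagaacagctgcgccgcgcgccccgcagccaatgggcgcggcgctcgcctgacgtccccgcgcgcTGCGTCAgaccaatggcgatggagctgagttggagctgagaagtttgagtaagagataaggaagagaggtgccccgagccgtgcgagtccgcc

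Transcription factors of striatal development and of its adult neurons were the next group. Of 20 tested, 11 were called higher and 3 lower, with a median of 1.10. The highest was Rarb, a retinoic acid receptor gene, at 4.57 and 4.38 in striatum against -0.63, -0.075 and 0.36 (difference 4.49, SE 0.066, adjusted p = 5.45e-06, limma). Its partner receptor gene Rxrg read 5.55 and 5.38 against -1.32, 1.03 and 3.07, with amygdala next, a difference of 4.12 (SE 0.17). The forkhead genes Foxp2 and Foxp1 were higher by 2.55 and 2.25. The homeobox gene Meis2 was higher by 2.58 against the mean of the regions but by 0.37 against olfactory bulb, whose arrays reached 6.40 beside 6.91 and 6.58 in striatum. The zinc finger genes Zfp503 (also called Nolz1) and Bcl11b (Ctip2) were higher by 1.95 and 1.06. Bcl11b lay near the 2-fold limit, between 0.89 and 0.94 and not called with median scaling, quantile normalization, normexp or without the KO striatum array, hypothalamus or prefrontal cortex. The 3 lower genes were Gsx2, Dlx1 and Sp8, which act in the progenitors of the ventral forebrain and in new neurons of the olfactory bulb. Olfactory bulb held their highest level, with Sp8 at up to 1.96 there and at -3.55 and -3.75 in striatum, and without the bulb arrays Sp8 and Dlx1 differed by -0.31 and -0.81 and were not called. Gsx2 was not well above background on either striatum array, and with the normexp correction its difference was 0.73.

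Other genes of retinoid handling went both ways. Of 14 tested, including Rarb and Rxrg, 7 were called higher and 3 lower, with a median of 0.83. Stra6, the retinol uptake receptor gene, read 0.90 and -0.036 against -3.54, -3.14 and -1.24, a difference of 3.16 (SE 0.13). Crym, which encodes a thyroid hormone binding protein and stood on the same list, was higher by 2.02, the retinol carrier gene Rbp4 by 1.98 and the retinoic acid binding protein gene Crabp1 by 1.61, but by 0.78 and not called within one scan day. The retinoic acid degrading enzyme gene Cyp26b1 was lower by 3.05 on the log2 scale, at -1.66 on both striatum arrays against -1.17, 1.34 and 3.28. The synthesis enzyme genes Aldh1a2 and Aldh1a3 were called lower as well, but Aldh1a3 was not well above background on either striatum array and differed by 0.28 with the normexp correction.

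The Rarb promoter is shown because the gene had the largest difference of both lists and is known to be induced by its own ligand. The known response element of this gene, a pair of repeats written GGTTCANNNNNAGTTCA, was added to the search after the data had been seen. It is in capitals and occurs in 2 of the 32851 promoters (0.0061%). Since the element is that of this gene, the match was fixed in advance and is a description only.
Rarb, chr14:16575427-16575726, minus strand: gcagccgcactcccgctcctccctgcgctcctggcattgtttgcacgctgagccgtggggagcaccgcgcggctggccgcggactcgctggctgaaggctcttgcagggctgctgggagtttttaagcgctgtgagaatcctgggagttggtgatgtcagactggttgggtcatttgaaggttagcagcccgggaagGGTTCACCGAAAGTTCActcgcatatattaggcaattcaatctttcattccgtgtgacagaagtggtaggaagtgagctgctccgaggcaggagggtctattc

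The components of cAMP signalling did not all go one way. Of 26 G protein, adenylyl cyclase and PKA genes, 5 were called higher and 9 lower, with a median of -0.54. Gnal, the stimulating G protein subunit coupled to D1 and adenosine receptors, read 1.01 and 0.99 against -3.07, -2.68 and -2.31 (difference 3.71, SE 0.12), and its second probe gave 3.25. The G protein subunit gene Gng7 was higher by 2.83, the cyclase genes Adcy5 and Adcy6 by 2.09 and 2.21 and the PKA subunit gene Prkar2b by 1.19, which was 0.98 with quantile normalization, 0.94 with normexp and 0.99 without hippocampus, and then not called. For Adcy6 the KO striatum array was lower than the WT one by 1.60 on the log2 scale. The lower calls included other members of the same families. The cyclase genes Adcy8 and Adcy2 fell by 3.19 and 2.53 on the log2 scale relative to the other regions, and the PKA subunit gene Prkar2a by 2.37, the last at -0.81 and not called with normexp. Gng4, also called lower, was not well above background on either striatum array. Gnas, which encodes the general stimulating subunit, was called lower at -2.31 on its brightest probe, but its other probes above background gave 0.21 and -0.20.

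Phosphodiesterases and RGS proteins, which end cyclic nucleotide and G protein signals, were more often higher. Of 15 phosphodiesterase genes, 8 were called higher and 2 lower, with a median of 1.20. Beside Pde10a and Pde1b, the higher genes included Pde7b at 2.58, Pde8b at 1.56 and Pde2a at 1.20, the last at 0.92 and not called without olfactory bulb. A second Pde2a probe gave 2.27. Pde1a was lower, at -1.17, with levels of 2.32 and 2.49 in striatum inside the range of 0.65 to 4.91 of the other arrays. It was -0.91 without amygdala KO and -0.88 without prefrontal cortex, and then not called. The other Pde1a probes, above background on all arrays, gave -2.30, -1.62 and -2.83. Of 16 RGS genes, 5 were called higher and 2 lower, with a median of 0.35. After Rgs9 came Rgs4 at 2.53, which prefrontal cortex approached to within 0.95, then Rgs14, Rgs2 and Rgs8 between 1.22 and 1.37. Without the olfactory bulb arrays, whose levels were the lowest, Rgs14 and Rgs8 differed by 0.49 and 0.92 and were not called. A second Rgs8 probe, with all arrays in the fit, gave 2.97. Rgs16 and Rgs19 were lower, at -1.49 and -1.03. Rgs19 was -0.68 with normexp and between -0.97 and -0.94 without amygdala KO, hippocampus or hypothalamus, and then not called.

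Of 15 genes of dopamine transmission, the receptor genes Drd1 and Drd2 were the 2 called higher, and 2 others were called lower, with a median of 0.098 that became -0.043 with arrays scaled to their medians. Drd3 and Drd4 differed by 0.33 and 0.87, both under 2-fold. Th, the dopamine synthesis enzyme gene, read -2.80 and -3.0 in striatum and reached 2.02 in olfactory bulb. It was not called, and without olfactory bulb its difference was 0.56. It was called lower without hippocampus, at -1.02, and within one scan day, at -1.77. The dopamine transporter gene Slc6a3 was called lower at -1.04, also with its highest level in olfactory bulb, at 1.08, and without that region it differed by -0.25 and was not called, as also with normexp (-0.17), without hypothalamus (-0.79) and without the KO striatum array (-0.85).

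Among genes of receptors for other modulators, 3 of 18 were called higher and 4 lower, with a median of 0.18. The kappa opioid receptor gene Oprk1 read 0.60 and 0.66 against -5.03, -2.62 and -0.39, a difference of 2.74 (SE 0.40). The adenosine-forming enzyme gene Nt5e was higher by 1.35, but by 0.84 and not called within one scan day. The cannabinoid receptor gene Cnr1 was higher by 1.00, at the 2-fold limit, and by 0.68 and not called without olfactory bulb. The endocannabinoid enzyme genes Napepld and Faah were lower, at -2.36 and -1.52, but -0.47 and -0.90 with normexp and then not called. Of 26 potassium channel genes, 3 were called higher and 4 lower, with a median of 0.20. Beside this list and the receptor genes above stand shares of 13.7% higher and 9.88% lower over all genes tested. Kcnab1 and Kcnt1 were higher by 2.87 and 2.73. Kcnc2, a fast-spiking channel gene, read -1.85 and -1.16 against 1.08, 1.43 and 2.29, a difference of -3.02 (SE 0.15). Its other probes gave -2.89 and, on the dimmest, -0.38. Kcnj3 was not well above background on either striatum array, and the other regions exceeded it at least 3.87-fold, but with normexp it differed by -0.44 and was not called.

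Interneurons are the few striatal neurons that are not projection neurons. Of 11 of their genes tested, 3 were called higher and 1 lower, with a median of 0.14 that fell just below 0 under both other scalings between arrays. Slc5a7, the choline transporter of cholinergic interneurons, read 0.26 and 0.0075 in striatum against -6.93, -4.75 and -3.41, a difference of 4.86 (SE 0.33, adjusted p = 9.85e-05, limma). The homeobox gene Nkx2-1 was higher by 3.24, at -2.13 and -2.16, but hypothalamus reached -1.35 and did not pass the test against striatum (difference -0.66, adjusted p = 0.15, limma). Lhx8, a factor of cholinergic neurons, read -3.17 and -3.07 against -7.63 to -4.62. It has no test because its amygdala KO spot was left out as an outlier. Chat, which encodes the acetylcholine synthesis enzyme, differed by -0.36 (adjusted p = 0.13, limma), so its probe did not follow that of Slc5a7. Calb2, the calretinin gene, was called lower.

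Genes of GABA and glutamate transmission went both ways. The GABA synthesis genes Gad1 and Gad2 differed by 0.70 and -0.35 and the vesicular GABA transporter gene Slc32a1 by 0.98, all under 2-fold. Of the 14 GABA genes, 3 were called higher and 4 lower, with a median of -0.52. The receptor subunit genes Gabrd and Gabra4 were higher, by 2.55 and 1.56. Gabra5 was lower at -2.89, with both striatum arrays below all others. The vesicular glutamate transporter gene Slc17a7 read -3.04 and -2.37 in striatum against 0.12, 1.32 and 1.80 (difference -3.71, SE 0.14). Slc17a6, the transporter of thalamic and hypothalamic neurons, read -2.62 and -2.54 against -1.10, -0.32 and 1.98 (difference -2.96, SE 0.068). Nrgn, a postsynaptic calmodulin binding protein, was the 1 of 11 glutamate genes called higher, at 1.57, but at 0.73 and not called with quantile normalization.

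**Figure D2:**
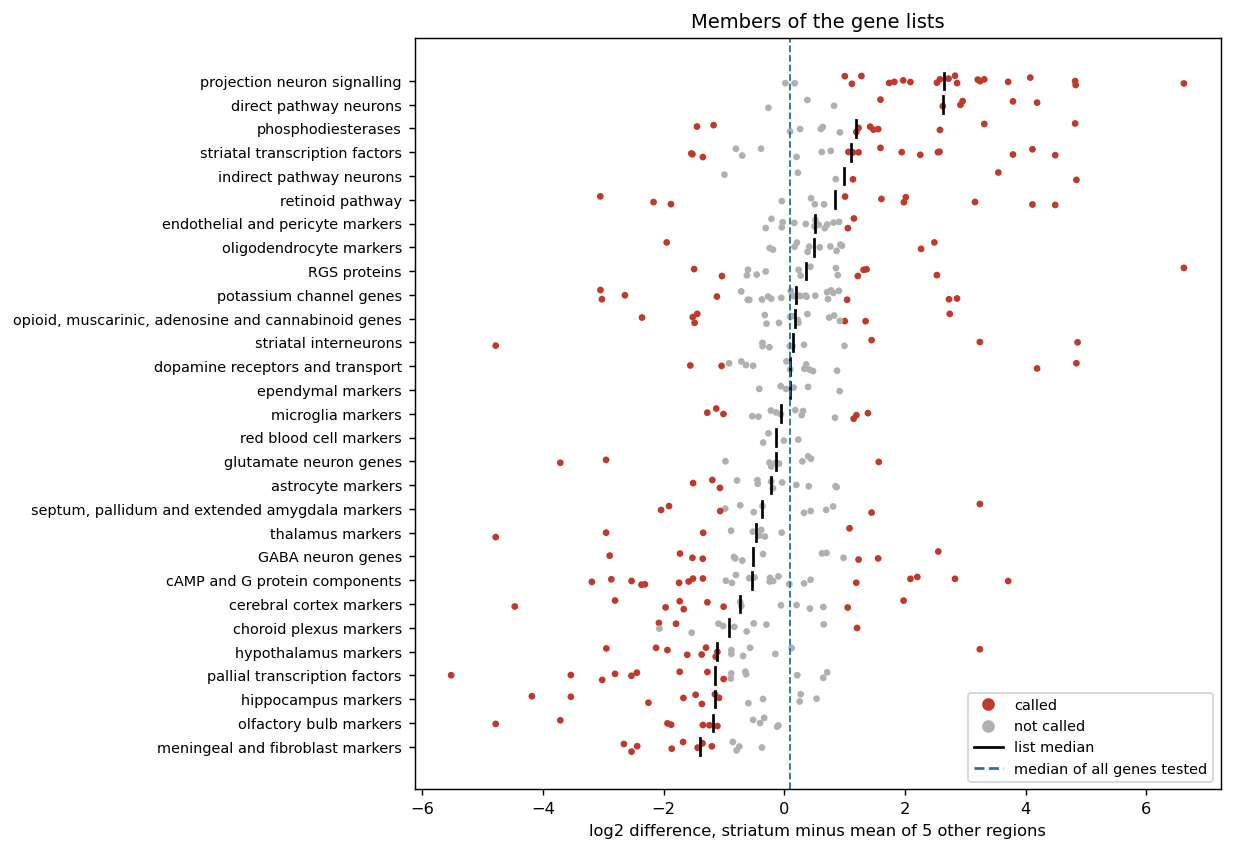
Log2 difference, striatum minus the mean of the 5 other regions (x axis), of each tested member of the 29 gene lists (rows, sorted by median; red points are called, grey not called, black bars list medians, the dashed line the median of all genes tested at 0.095). The projection neuron signalling list has the highest median, at 2.65, and the meningeal and fibroblast list the lowest, at -1.40.

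Markers of the compared regions were more often called lower than higher in striatum. No gene of the pallial transcription factor, hippocampus and olfactory bulb lists was called higher by limma, and 3, 2 and 0 of them had a higher mean at an unadjusted p under 0.05. The pallial factor gene Emx2 differed by -0.63 on its brightest probe, but a second probe, above background on all arrays, gave 1.72. Of 16 pallial transcription factors 9 were called lower (median -1.14), of 13 hippocampus markers 8 (median -1.15) and of 12 olfactory bulb markers 7 (median -1.18). Of 15 cerebral cortex markers 7 were lower and 2 higher, Rspo1 and Cplx3, and of 15 hypothalamus markers 8 were lower and 1 higher, Nkx2-1. The cortex and hypothalamus medians were -0.73 and -1.11. When a list's own region was left out, the median was -0.66 for hippocampus, -0.40 for olfactory bulb and -0.50 for hypothalamus markers. For cortex markers without prefrontal cortex it was -0.76. With normexp the medians of these lists and of the pallial factors lay between -0.63 and -0.15. The Cplx3 difference was 1.05, at the limit, and its second probe gave 0.37. It was not called with median scaling (0.91), normexp (0.93) or the mean over probes (0.71), nor without the WT striatum array (0.72), hippocampus (0.94) or hypothalamus (0.96). The cortical layer factor gene Tbr1, at -0.60 and not called with normexp, read -4.91 and -3.31 in striatum and up to 0.44 in prefrontal cortex. Pmch, the peptide of lateral hypothalamus neurons, was not well above background on either striatum array and reached 5.93 in hypothalamus. Of 10 thalamus markers 3 were lower and 1 higher, and of 13 markers of septum, pallidum and extended amygdala, tissues that border the striatum, 3 were lower and 2 higher, Nkx2-1 and Lhx6. The Lhx6 difference was 1.45, but 0.59 without the WT striatum array, and then not called.

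The 10 named genes with the lowest fitted differences came from several families. The first 6 described here were not well above background on either striatum array, so that their order is not measured. Bhlhe22, a transcription factor of cortical neurons, was at least 20.6-fold higher in the other regions. Calretinin (Calb2) was at least 15.2-fold higher there, and its 3 probes gave fitted differences of -4.79, -3.94 and -3.43. Tafa1, a secreted neuronal protein, was at least 19.1-fold higher, the relaxin-3 receptor gene Rxfp3 at least 7.74-fold, the cerebellin gene Cbln4 at least 5.45-fold and Ppp1r17, a phosphatase inhibitor gene, at least 3.89-fold. In these bounds the striatum stands at the lowest signal that was well above background on its arrays, or at the probe's own where that was higher. With normexp Cbln4 and Ppp1r17 differed by -0.77 and -0.80 and were not called. Vip, the gene of a peptide of cortical interneurons, was well above background on 1 striatum array and read -4.60 and -3.20 against -0.95, 0.54 and 2.10. Sphkap, which anchors PKA, also passed on 1 array and differed by -4.08. Nrn1, a neurite growth factor gene, passed on both and read -0.71 and -0.056 against 2.32, 4.10 and 4.89, which is 19.4-fold lower (adjusted p = 2.83e-05, limma). The protocadherin gene Pcdh20 read -2.25 and -2.08 against 0.36, 1.77 and 3.39, or 16.2-fold lower.

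Among 14 oligodendrocyte markers the myelin protein genes Mbp and Mobp were called higher, by 2.49 and 2.27. The other Mbp probes gave 2.56 and 0.77, and a second Mobp probe gave 1.085. Ptgds, a gene of oligodendrocytes and meninges, was called lower at -1.95. The median of the oligodendrocyte list was 0.50, and its summed signal was 611 and 457 in striatum against 160 to 338 elsewhere. Summed signals here add the genes on the unlogged scale. Bright genes therefore weigh most, such as Mbp at a mean level of 6.60. Of 12 meningeal and fibroblast markers 8 were called lower by limma and none higher, also none at an unadjusted p under 0.05, with a median of -1.40. For 10 of them both striatum arrays lay below all others. Islr and Igfbp2 led them, at -2.66 and -2.53, and the summed signal was 9.95 and 10.9 against 13.8 to 46.9. Choroid plexus markers differed between the striatum arrays themselves. The KO array was higher by a median of 1.59 over 12 genes, and the transthyretin gene Ttr read -4.20 on the WT and 0.050 on the KO array. Their summed signal was 4.36 and 6.71 against 1.46 to 29.0. Astrocyte markers had 3 of 13 lower and none higher, microglia markers 3 of 15 higher and 3 lower, and endothelial and pericyte markers 2 of 16 higher. Over all genes tested, 13.7% were called higher and 9.88% lower. None of 6 ependymal and none of 4 red blood cell markers was called by limma, and 3 and 0 of them had an unadjusted p under 0.05. The part of other cell types in the neuronal differences above was not tested.

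The 15 named genes with the highest differences held 3 of the groups above, Rgs9, Drd2 and Slc5a7, and 12 genes of no list. Several of these had steady levels. Ido1, a tryptophan-degrading enzyme gene, read 2.74 and 2.58 in striatum against -3.61, -2.88 and -2.57 (difference 5.60, SE 0.070, adjusted p = 4.29e-06, limma). Nexn, an actin-binding protein gene, read 3.82 and 3.43 against -2.99, -2.33 and -1.92. Sh3rf2, a ubiquitin ligase gene, read 1.53 and 1.65 against -5.15, -4.22 and -3.43. Their KO and WT arrays lay within 0.5 of each other. Ifi27l2b, an interferon-inducible family gene, was well above background on both striatum arrays and on none of the 9 others, and was at least 23.7-fold higher.

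For 8 of the 15 the KO striatum array was lower than the WT one by over 0.5. Myo1e, a myosin gene, read 5.06 and 4.24 against -5.33, -3.38 and 2.66, a difference of 7.42 (SE 0.51). Its highest level outside striatum was in olfactory bulb WT, and the KO bulb array was lower too. AU018091 read 1.94 and 0.61 in striatum and was well above background on only 2 of the others. Its fitted difference of 7.62 (SE 0.32) therefore rests on signals near the background. Tgm5, a transglutaminase gene, differed by 6.66, the integrin gene Itga1 by 6.49, the kinase gene Pdpk1 by 5.53, the AP-1 family gene Fosl2 by 5.43, the keratin gene Krt2 by 5.33 and Nepn, a matrix protein gene, by 4.89. KO minus WT was -2.05 for Krt2, -1.5 for Tgm5 and -1.45 for Fosl2.

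**Figure D3:**
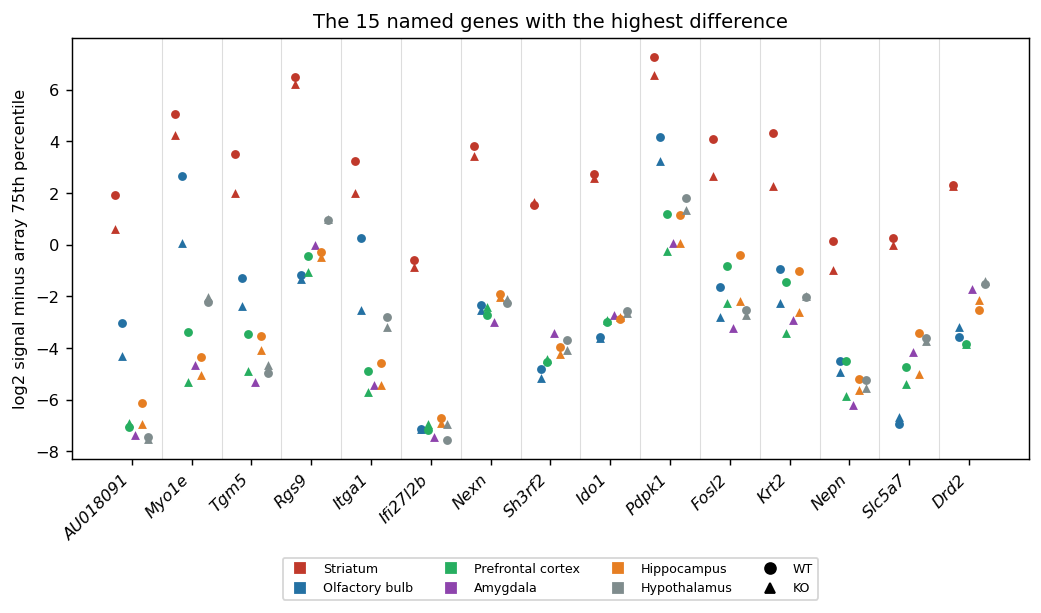
Levels of the 15 named genes with the highest striatum difference on each of the 11 arrays (y axis, log2 signal minus the 75th percentile of the array; colours are regions, circles WT and triangles KO). Rgs9, Nexn, Sh3rf2, Ido1 and Drd2 have close striatum points, while Krt2 differs by -2.05 between the KO and the WT striatum array.

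Other probes of the same gene separated these genes further. Of the 15, 6 have several probes. For Drd2 the second probe gave 1.55, in the same direction. For Myo1e the other probes gave 0.034 and -0.29, for Itga1 0.16, for Pdpk1 0.028 and -0.35, for Fosl2 -1.04 and for Krt2 -2.65. Those of Itga1 and Krt2 and the first of Myo1e were not well above background on either striatum array, so their sizes are not measured. The difference of these 5 genes therefore rests on 1 probe each, and the transcript that the probe reads was not tested. Across all genes called higher with several probes, the other probes had the same sign for 304 of 389 (78.2%), and across those called lower for 330 of 430 (76.7%). For differences between 2 and 3 this held for 38 of 41 higher and 50 of 59 lower genes, and from 3 upwards for 17 of 24 and 9 of 9.

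**Figure D4:**
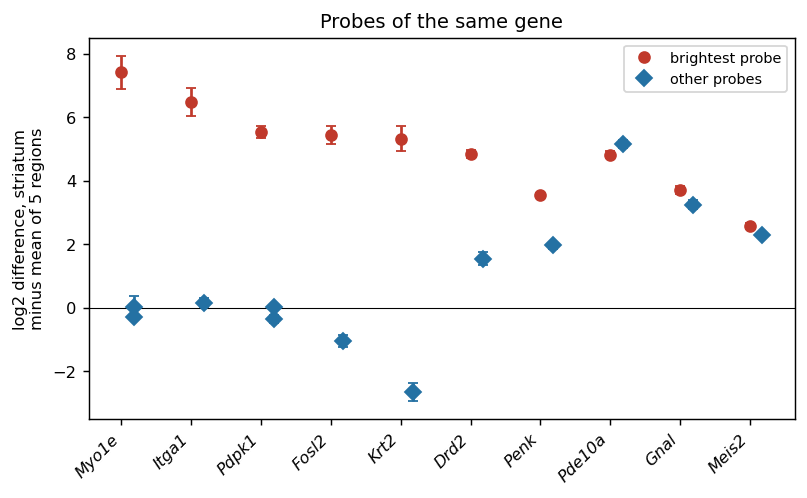
Log2 difference, striatum minus the mean of the 5 other regions, of the brightest probe of a gene (red circles) and of its other probes (blue diamonds), with bars of 1 SE. The other probes of Myo1e, Itga1, Pdpk1, Fosl2 and Krt2 lie between -2.65 and 0.16, while those of Pde10a, Gnal and Meis2 lie within 0.5 of the brightest probe.

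Genes were also ranked by their likeness to Rgs9 and to Myo1e over the 11 arrays. Likeness is Pearson's r of a gene's levels over the arrays, given as a description, since arrays of a region share a slide. With r of at least 0.95 there were 158 genes for Rgs9, of which 106 have a name and 3 belong to the projection neuron lists, and 199 for Myo1e, of which 99 have a name and none belongs to them. Among the 15 highest genes, Ido1, Sh3rf2, Drd2, Nexn and Ifi27l2b were that close to Rgs9, and Itga1 and Pdpk1 to Myo1e. The r between Myo1e and Rgs9 themselves was 0.71, which leaves no room for a gene in both sets.

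Calls in either direction also varied with brightness. When the tested genes were split into 4 equal groups by their mean level, 15.3% of the dimmest were called higher, then 16.2%, 12.7% and 10.7% of the brightest. The shares called lower lay between 7.82% in the brightest group and 11.4% in the third. Genes with a name made up 23.2% of the higher calls among the dimmest and 65.9% among the brightest, where they were 38.5% and 76.1% of the genes tested. In all, 35.9% of the higher calls and 63.5% of the lower calls carry a name, beside 56.2% of the genes tested. The part of the dim striatum arrays in this pattern was not tested.

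**Figure D5:**
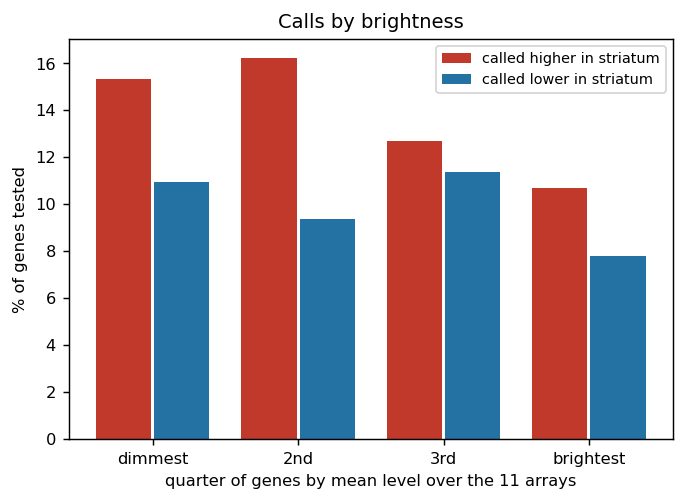
Share of tested genes called higher and called lower in striatum (y axis, percent) in 4 groups of equal size by mean level over the arrays, from the dimmest to the brightest (x axis). The share called higher is highest in the second group, at 16.2%, and lowest in the brightest, at 10.7%, and the share called lower stays between 7.82% and 11.4%.

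Set against each region alone, the striatum differed from amygdala in the most genes, with 5577 higher and 2858 lower (33.4% in either direction). There the region is the single KO array, which is assumed to vary like the others. Against hypothalamus 3981 were higher and 2664 lower (26.3%), against prefrontal cortex 3631 and 2779 (25.4%), and against olfactory bulb 2973 and 2756 (22.7%). Against hippocampus the lower calls were the more numerous, with 3303 beside 3147 higher (25.5%). These 5 comparisons share the striatum arrays. Lower than each region separately were 778 genes (3.08%).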

How the data were processed

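Labelled RNA from pooled brain tissue was hybridised to 1-colour Agilent arrays. The spot intensity values were deposited as output of Agilent Feature Extraction 9.5.3.1, already background-subtracted and not scaled between arrays, per the file headers. From the deposited processed intensity, log2 was taken and the 75th percentile over the 43379 gene spots of each array was subtracted. Spots marked as outliers, 61 to 143 an array, were dropped, and saturation did not occur. Accessions were matched to RefSeq genes (GRCm38.p6), which named 22951 of 41174 probes (55.7%), and a gene was represented by its brightest probe. Genes were tested if well above background, by the scanner's flag, on both striatum arrays or on at least 5 others. Region means with a genotype term were fitted in limma 3.58.1 (R 4.3.3; lmFit, eBayes; 4 residual degrees of freedom) with Benjamini-Hochberg adjustment, and 9 genes with a missing amygdala KO spot could not be fitted. Folds written as at least N-fold set the bright group against the lowest signal that was well above background on each array of the dim group, or its own signal where higher. On simulated data 87% of changes of 1.5 and 97% of changes of 3 on the log2 scale were recovered among 25268 genes, with 3 false calls. The simulation changed 200 genes and gave every array of a gene the same normal noise, with no background floor and no slide effect. It therefore cannot tell how many calls near the background or on the dim striatum arrays are false. The number of arrays limits the precision.

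Named in the text are the 15 highest and 10 lowest named genes called with both striatum arrays on one side of all 9 others, and members of 29 lists. The arrays compared, the markers and the lists were chosen with earlier results of these data known. Of 468 list entries, 38 had no named probe. WT and KO arrays of a region share a slide, so the genotype term also takes up what the arrays of a genotype have in common. Alternatives were scaling, background correction, filters on dim probes, probe choice, the model, variance options and left-out or added arrays. The normexp alternative was planned on the mean spot intensity but was run on the median spot and background intensities of the scanner output. The 12 value columns of a deposited ratio table were not used.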

Additional observations from a re-analysis of the deposited data

Results flagged for a closer look

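For 5 genes named here the KO minus WT difference in striatum departed from that of the 4 other regions with both arrays (limma, adjusted over 25275 genes, of which 180, or 0.712%, passed and 3777 had an unadjusted p under 0.05). Lhx6, a factor of interneurons and pallidal neurons, departed by -1.80 (SE 0.19, adjusted p = 0.0403, limma), with -1.67 on the WT and -3.33 on the KO striatum array. Camk2a, a kinase gene of excitatory synapses, departed by -1.89 (adjusted p = 0.0323, limma), at 6.79 and 4.71. Zic4, a septal and bulb factor, departed by 1.70 (adjusted p = 0.0470, limma), at -3.61 and -1.97. C1ql2, a complement-like protein of hippocampal mossy fibres, departed by 2.16 (adjusted p = 0.0323, limma), at -3.45 and -1.19. Nr4a2, a nuclear receptor gene of the claustrum and deep cortex, departed by 1.84 (adjusted p = 0.0459, limma), at -0.67 and 0.70. The fit sets 1 KO and 1 WT striatum pool against each other and takes its spread from the 4 other regions alone, so the p-values assume that striatum pools vary as those do, and differences in dissection, RNA pool and slide position cannot be told apart from genotype.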

How the results depend on the processing

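The count of genes called higher was 3475 and that of genes called lower 2497. Without the filter on dim probes 7450 genes were called higher. With only probes well above background on all 11 arrays 1415 were called lower, and with the normexp correction 916. Under the other alternatives both counts stayed within 1.5 times, between 2442 and 3895 higher and between 1739 and 3197 lower. Leaving out a striatum array, another region or amygdala KO gave 3040 to 3893 higher and 2350 to 2933 lower, and 26 to 30 projection neuron genes. Without genotype in the fit, which acts as the replicate block here because each region holds a WT and a KO array, 3542 were higher and 2535 lower. With the 2 striatum arrays set against 9 others as 2 groups, 21 of the 29 projection neuron genes were called. That setting, in which differences between the other regions enter the spread, also ended the call of 38 of the 127 genes named. Among them were Tac1, Pdyn, Isl1, Slc35d3, Meis2, Oprk1, Kcnab1, Crym and Nkx2-1, whose differences there lay between 2.15 and 3.85. Of the 93 named genes with a value under all 19 alternatives, 47 kept their direction and call in each.

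Signs turned mostly for genes that were not called. Strn became -0.12 and -0.14 with median scaling and quantile normalization and -0.035 without hypothalamus and amygdala KO. With the normexp correction Chat became 0.42 and C1ql2 0.17, and the called genes Gsx2 and Aldh1a3 became 0.73 and 0.28. With the mean over probes Chat became 0.23 and Sfxn1 -0.41. Without hypothalamus and amygdala KO, Ttr was 1.40 and Gad2 0.019, and C1ql2 was 0.42 within one scan day. When arrays or regions were left out one at a time, the difference ranged from -0.020 to 0.089 for Strn, from -0.25 to 0.37 for Dclk3, from -1.02 to 0.56 for Th, from -2.32 to 1.58 for Ttr, from -0.47 to 1.43 for Camk2a, from -0.45 to 1.26 for Zic4, from -1.48 to 0.68 for C1ql2 and from -1.67 to 0.17 for Nr4a2. For Camk2a, Zic4, C1ql2, Nr4a2 and Ttr the ends are the fits without the WT and without the KO striatum array. The alternatives by scan day and without hypothalamus and amygdala KO were chosen after seeing the data. The causes were not tested. Signal over background limits calls in both directions. Of the lower calls, 824 (33.0%) have no spot well above background in striatum. Of the higher calls, 2791 were well above background on all 9 others and 26 on none. Higher calls were 74.9% of all calls without the filter on dim probes and 58.2% with it.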
